A study of Homo sapiens with 24 samples.

Results

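The unfolded protein response and the integrated stress response were described here through 38 genes, of which 37 had a probe set of their own among the 17448 genes measured. The genes were chosen by name, with earlier results of these data known, and each was represented by its brightest probe set. PDIA3, a disulfide isomerase, shared its probe sets with another gene and was not analysed here. The 37 genes comprised 12 chaperones and folding factors of the endoplasmic reticulum (ER), 4 genes of ER-associated degradation and protein translocation, 8 sensors and transcription factors, and 13 targets of the factor ATF4.

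The data were 24 Affymetrix arrays, in 9 groups, of the human line SW1222, which was established from a colorectal cancer. DPPA3, whose protein is known from early germ cells and oocytes, was overexpressed, knocked down or knocked out. A line overexpressing DPPA3, called the induced line here, and its control line formed megacolonies in Matrigel (3D) under 5 µg/ml doxycycline for 5 days, with 3 arrays each. Both lines were also kept in 2D under the same dose for 4 hours, again with 3 arrays each. The DPPA3 knockdown and its shRNA control had 3 arrays each in 3D. The CRISPR DPPA3 clones 66 and 75 (C66 and C75) and their control with scrambled gRNA had 2 arrays each in 3D. The last 5 groups were untreated, and all cells were kept at 21% oxygen. The induced line was analysed here only under doxycycline, so a response to DPPA3 and a standing difference between the lines cannot be told apart. Each knockout is 1 clone, so loss of DPPA3 and the history of that clone cannot be told apart either.

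The ER folds secreted and membrane proteins. When unfolded proteins accumulate, the sensors ERN1 (IRE1), ATF6 and EIF2AK3 (PERK) start the unfolded protein response: ERN1 splices the RNA of XBP1, and XBP1 and ATF6 raise chaperones and degradation factors. EIF2AK3 phosphorylates the initiation factor eIF2, which slows protein synthesis but favours translation of ATF4. Other eIF2 kinases, which sense amino acid shortage or heme, reach ATF4 without the ER, and this shared arm is the integrated stress response, with genes of amino acid transport, serine synthesis and one-carbon metabolism among its targets. In the intestine, XBP1 is known for its role in secretory cells. These arrays measured RNA levels and not XBP1 splicing, eIF2 phosphorylation or ATF4 protein.

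The chaperone genes are known for a shared promoter element, the ER stress response element, which spells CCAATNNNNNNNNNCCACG. It was sought on both strands in RefSeq promoter windows (GRCh38.p14) of 300 bases, from 250 bases before to 50 after the start site, which were found for 35 of the 38 genes. An exact match was present in 5 of 12 chaperone windows and in XBP1, and in none of the 11 windows of ATF4 targets, against 27 of 35116 windows in the table (0.0769%). Since chaperone genes were already known for this element, these shares are a description and not a test. The matched sites are shown to compare XBP1, which rose in 3D, with chaperones that did not. Capitals mark the fixed bases, and each site is written in the orientation of the element.
XBP1: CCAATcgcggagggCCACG
HSPA5: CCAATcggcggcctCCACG
HSP90B1 first site: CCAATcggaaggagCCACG
HSP90B1 second site: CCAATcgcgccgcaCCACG
CALR: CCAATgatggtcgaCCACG
CANX: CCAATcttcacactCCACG
CRELD2: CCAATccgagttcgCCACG
These sites lie at chr22:28800603-28800621 (XBP1), chr9:125241391-125241409 (HSPA5), chr12:103930216-103930234 and chr12:103930321-103930339 (HSP90B1), chr19:12938384-12938402 (CALR), chr5:179698778-179698796 (CANX) and chr22:49918554-49918572 (CRELD2). The CALR, CRELD2 and second HSP90B1 sites run against the direction of the gene. The whole windows of XBP1 (chr22:28800520-28800819, minus strand) and HSPA5 (chr9:125241294-125241593, minus strand) read as follows, with the same bases in capitals.
XBP1: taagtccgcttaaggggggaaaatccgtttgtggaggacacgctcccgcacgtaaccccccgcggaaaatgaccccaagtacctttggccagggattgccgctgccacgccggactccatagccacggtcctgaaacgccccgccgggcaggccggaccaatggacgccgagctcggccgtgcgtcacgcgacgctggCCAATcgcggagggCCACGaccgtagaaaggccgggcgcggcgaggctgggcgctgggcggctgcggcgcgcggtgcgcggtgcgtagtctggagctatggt
HSPA5: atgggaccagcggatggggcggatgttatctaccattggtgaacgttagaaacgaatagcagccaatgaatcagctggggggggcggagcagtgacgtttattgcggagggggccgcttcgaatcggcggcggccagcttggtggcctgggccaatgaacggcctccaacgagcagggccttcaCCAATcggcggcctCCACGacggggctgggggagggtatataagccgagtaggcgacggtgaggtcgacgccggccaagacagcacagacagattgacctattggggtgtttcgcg

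The element bound by ATF4, searched as TGATGNAA on both strands, was in the windows of CHAC1, ASNS and SLC3A2 among 11 ATF4 targets and in HERPUD1, against 3.62% of all windows. The core of the XBP1 element, TGACGTG, was in the window of HYOU1 alone, against 1.97% of all windows. The windows of CHAC1 (chr15:40953221-40953520, plus strand) and ASNS (chr7:97872359-97872658, minus strand) are shown because both genes are classical ATF4 targets that were higher in 3D than in 2D in the induced line. The match runs against the gene in CHAC1 and along it in ASNS.
CHAC1: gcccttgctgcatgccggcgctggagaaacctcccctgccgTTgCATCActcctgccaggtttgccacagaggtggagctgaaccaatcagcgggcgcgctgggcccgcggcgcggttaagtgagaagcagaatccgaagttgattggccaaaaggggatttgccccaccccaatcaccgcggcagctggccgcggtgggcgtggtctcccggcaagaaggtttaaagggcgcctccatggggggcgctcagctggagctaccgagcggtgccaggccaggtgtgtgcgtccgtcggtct
ASNS: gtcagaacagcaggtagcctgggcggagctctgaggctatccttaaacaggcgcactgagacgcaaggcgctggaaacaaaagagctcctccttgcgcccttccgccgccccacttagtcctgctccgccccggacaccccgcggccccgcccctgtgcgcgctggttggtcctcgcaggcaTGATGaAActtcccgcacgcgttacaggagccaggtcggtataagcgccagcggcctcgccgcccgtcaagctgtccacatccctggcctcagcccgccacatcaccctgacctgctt
A match is a match of letters only, and TRIB3, PHGDH and SLC7A5, described next, had none of these elements in the window searched.

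The cell line and the targeted gene were checked first. All 9 markers of colorectal epithelium, among them EPCAM, CDH1, CDX2 and LGALS4, were brighter than at least 92.2% of all genes. The 3 endothelial markers were brighter than 13.2% to 23.5% of genes and the 5 fibroblast markers than 1.97% (DCN) to 52.8% (COL1A1). Of the 4 leukocyte markers, PTPRC was brighter than 1.63% of genes and CD68, the brightest, than 65.2%. DPPA3 read 3.77 to 4.74 log2 in the induced line in 3D, against 2.59 to 2.99 in its control line, and 4.18 to 6.16 in the induced line in 2D, against 2.83 to 3.47 in its control line. It read 2.55 to 3.19 in the knockdown, the knockouts and their controls, among dim signals. Its log2 fold changes were -0.04 in the knockdown, -0.16 in C66 and 0.19 in C75, none of which passed, so these arrays do not show its loss. Induction of DPPA3 passed in 3D (limma adjusted p = 0.00251) and in 2D (limma adjusted p = 4.75e-04). Comparisons were made with limma on log2 values, and a gene is said to have passed, risen or fallen where its Benjamini-Hochberg adjusted p over all 17448 genes was under 0.05. Errors are standard errors (SE) or 95% intervals of the log2 fold change. Whether replicates came from separate cultures is not stated in the labels, and p-values then measure only the spread between these arrays. In bulk RNA, fewer cells of a type and less RNA per cell cannot be told apart.

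With DPPA3 induced for 5 days in 3D, 4 ATF4 targets, the factor XBP1 and the degradation gene EDEM1 were higher than in the control line, and no chaperone gene was. Of 37 genes, 6 rose and 1 fell, 18.9% of them, where 5.7% of all genes passed (2.93% higher and 2.77% lower). Here and below, the share of all genes includes dim genes, and a share among genes of like brightness was not counted. The risen genes were TRIB3, SLC7A5, PHGDH and SHMT2 among 13 ATF4 targets, XBP1 among 8 sensors and factors, and EDEM1 among 4 genes of degradation and translocation. The chaperone-group enzyme PDIA4 fell, and no other chaperone passed. All changes were under 2-fold, between 1.32-fold and 1.74-fold.

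TRIB3, a pseudokinase induced by ATF4 that feeds back on the stress response, changed the most. It read 5.89, 5.58 and 5.50 log2 in the induced line and 4.80, 4.97 and 4.81 in the control line. The groups did not overlap, and the log2 fold change was 0.80 (SE 0.13, limma adjusted p = 1.95e-04). It passed in all 12 alternatives run for this comparison, with an adjusted p of at most 0.00693.

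Of the serine and one-carbon enzymes, PHGDH and SHMT2 passed. PHGDH, which catalyses the first committed step of serine synthesis, read 7.56, 7.08 and 7.39 in the induced line and 6.86, 6.86 and 6.63 in the control line. Every induced array was above every control array, and the log2 fold change was 0.56 (SE 0.12, limma adjusted p = 0.00568). SHMT2, the mitochondrial enzyme that converts serine to glycine, read 9.20, 8.85 and 9.14 in the induced line and 8.77, 8.68 and 8.15 in the control line, where replicate 3 stood below the other 2. Its log2 fold change was 0.53 (SE 0.14, limma adjusted p = 0.0183). PSAT1, the next enzyme of serine synthesis after PHGDH, had a log2 fold change of 0.31, and MTHFD2, the mitochondrial folate enzyme, one of -0.01, and neither passed.

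Of the amino acid carriers in the list, SLC7A5 passed. SLC7A5 (LAT1), which imports large neutral amino acids, read 8.22, 7.39 and 7.83 in the induced line and 7.46, 7.36 and 6.74 in the control line. The groups overlapped, and the log2 fold change was 0.63 (SE 0.18, limma adjusted p = 0.0435). SLC3A2, the heavy chain that SLC7A5 and SLC7A11 need at the membrane, had a log2 fold change of 0.12, and SLC7A11, the cystine importer, one of -0.03. CTH, which makes cysteine, had one of 0.44 (limma adjusted p = 0.0515; 0.0194 to 0.0487 in the 3 alternatives where it passed), and CHAC1, which degrades glutathione, one of 0.09. ASNS, the asparagine synthetase, had one of 0.08 (95% interval -0.16 to 0.32), SESN2, a leucine sensor at a dim level, one of -0.06, and PPP1R15A (GADD34), an eIF2 phosphatase subunit, one of 0.20. None of these 7 genes passed.

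**Figure D1:**
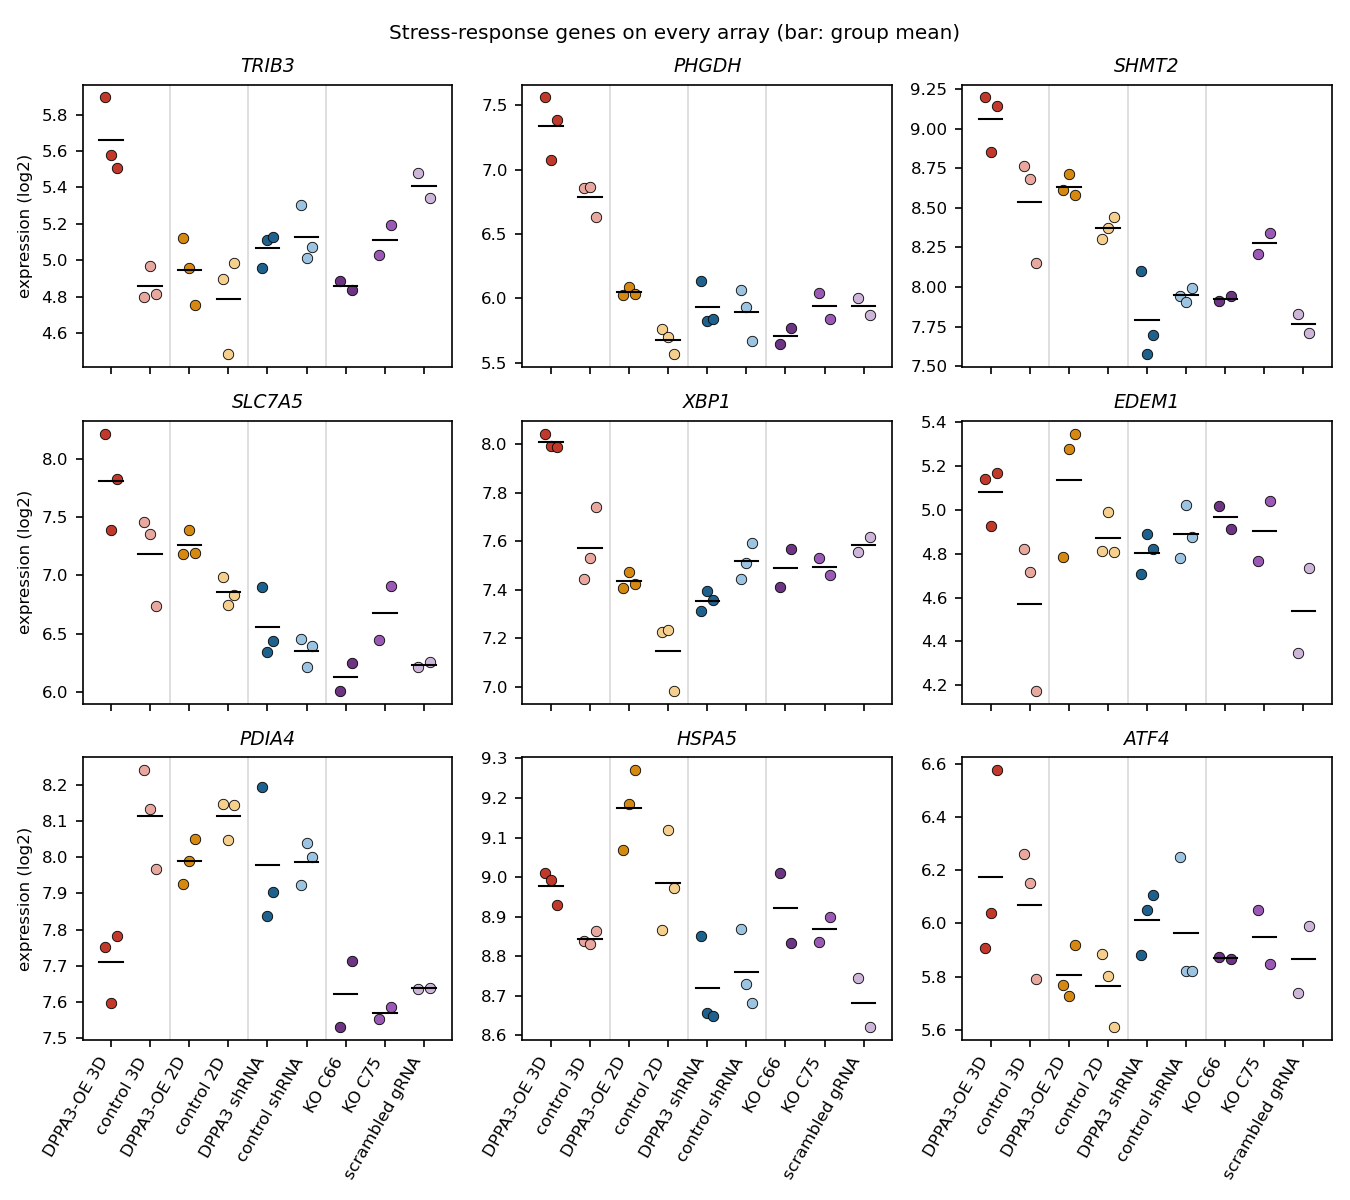
Expression on the log2 scale (vertical axis, separate for each gene) on every array of the 9 groups (horizontal axis) for 9 stress-response genes; points are arrays and bars are group means. TRIB3 stands at 5.50 to 5.89 in the induced line in 3D, at 4.80 to 4.97 in its control line and at 5.34 to 5.48 in the scrambled control. HSPA5 stands at 8.93 to 9.01 in the induced line in 3D and at 8.83 to 8.86 in its control line, and spans 8.62 to 9.27 over all arrays.

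Among the sensors and factors, XBP1 was the only one to pass. It read 8.04, 7.99 and 7.99 in the induced line and 7.45, 7.53 and 7.74 in the control line. The groups did not overlap, and the log2 fold change was 0.44 (SE 0.10, limma adjusted p = 0.00489). ATF4 itself read 5.91, 6.04 and 6.58 in the induced line and 6.26, 6.15 and 5.79 in the control line, and these overlapped widely. Its log2 fold change was 0.11 (95% interval -0.21 to 0.42). DDIT3 (CHOP), a factor of sustained stress and cell death, read 4.67, 5.14 and 4.77 in the induced line and 4.96, 4.72 and 5.01 in the control line, a log2 fold change of -0.03 (95% interval -0.29 to 0.23). The sensors ERN1, ATF6 and EIF2AK3 had log2 fold changes of 0.23, 0.07 and 0.22, and the factors CEBPB and ATF5 of 0.04 and -0.03.

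EDEM1, which draws misfolded glycoproteins into degradation, read 5.14, 4.93 and 5.17 in the induced line and 4.82, 4.71 and 4.17 in the control line, where replicate 3 was the lowest. Its log2 fold change was 0.51 (SE 0.15, limma adjusted p = 0.0472). HERPUD1, a scaffold of the degradation complex, had a log2 fold change of 0.34, its partner SEL1L one of 0.22 and the translocon subunit SEC61B one of 0.17, and none of these passed.

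The median log2 fold change over the 12 chaperone genes was 0.01, with 6 above and 6 below 0, beside a median of -0.01 over all genes. HSPA5 (BiP), the main ER chaperone and the usual readout of ER stress, read 9.01, 8.99 and 8.93 in the induced line and 8.84, 8.83 and 8.86 in the control line. The groups were apart, but by only 0.13 log2 (95% interval -0.06 to 0.33, limma adjusted p = 0.586). PDIA4, a disulfide isomerase that acts with HSPA5, read 7.75, 7.60 and 7.78 in the induced line and 8.24, 8.13 and 7.97 in the control line. Its groups did not overlap, and it fell by 0.40 log2 (SE 0.10, limma adjusted p = 0.0153). The remaining 10 lay between -0.33 for CRELD2, a secreted folding factor that passed only without dim genes (adjusted p = 0.0489), and 0.22 for DNAJC3, and HSP90B1, CALR and CANX, other large chaperones, had log2 fold changes of -0.06, 0.07 and 0.18. Over the 13 ATF4 targets the median was 0.20, with 10 above 0.

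The count of 7 rested in part on single arrays. It was 3 without induced replicate 1 and 4 without induced replicate 3 or without control replicate 3, and when these 6 arrays alone gave the variance, TRIB3 was the only gene to pass. Over the 12 alternatives the adjusted p reached 0.0708 for XBP1, 0.0628 for PHGDH, 0.164 for SHMT2, 0.307 for SLC7A5, 0.324 for EDEM1 and 0.102 for PDIA4.

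Neighbouring genes were read as well, namely the 10 genes of above-median level on either side of each gene that passed. In this comparison their median log2 fold change was 0.15 around TRIB3 (chromosome 20), -0.15 around PHGDH (chromosome 1), 0.08 around SHMT2 (chromosome 12), 0.01 around SLC7A5 (chromosome 16), -0.02 around XBP1 (chromosome 22), -0.01 around EDEM1 (chromosome 3) and -0.18 around PDIA4 (chromosome 7). The part of these shifts in the values was not tested.

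A further 96 genes of these pathways were read beside the 37. Of them 8 rose and 3 fell in 3D (11.5%, beside 5.7% of all genes, 2.93% higher and 2.77% lower), of which 6 risen and 1 fallen were among 34 further ATF4 targets. PPP1R15B, the constitutive eIF2 phosphatase subunit, rose by 0.83 log2 (limma adjusted p = 1.24e-04), PCK2, the mitochondrial enzyme that makes phosphoenolpyruvate, by 0.65, EPRS1, a transfer RNA synthetase, by 0.44 and the cationic amino acid carrier SLC7A1 by 0.43. GDF15, a secreted stress cytokine, fell by 0.49, EIF2B2, a subunit of the eIF2 exchange factor, by 0.44 and the disulfide isomerase PDIA5 by 0.42. PPP1R15B and PCK2 passed in all 12 alternatives and EPRS1 in 11, while SLC7A1 passed in 8 (adjusted p up to 0.182), GDF15 in 7 (up to 0.136), EIF2B2 in 6 (up to 0.228) and PDIA5 in 4 (up to 0.265). The surroundings moved too for PPP1R15B (neighbour median 0.27), EPRS1 (0.31) and GDF15 (-0.34), and their part in the values was not tested either. For PCK2 the neighbour median was -0.03.

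After 4 hours in 2D, 1 of the 37 genes passed, the cystine importer SLC7A11, which fell. This is 2.7%, where 3.13% of all genes passed (1.87% higher and 1.26% lower). SLC7A11 read 3.87, 3.77 and 4.01 in the induced line and 4.22, 4.50 and 4.41 in the control line. The groups did not overlap, and it fell by 0.49 log2 (SE 0.12, limma adjusted p = 0.0143). It lost the call without induced replicates 1 or 2, without control replicates 2 or 3, and with the variance of these 6 arrays alone, with an adjusted p of at most 0.0838 over 12 alternatives. Its neighbours had a median of 0.06.

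None of the genes that rose in 3D passed in 2D. TRIB3 read 5.12, 4.96 and 4.75 in the induced line and 4.90, 4.48 and 4.98 in the control line, which overlapped, with a log2 fold change of 0.16 (95% interval -0.11 to 0.42). XBP1 read 7.41, 7.47 and 7.42 in the induced line and 7.22, 7.23 and 6.98 in the control line, apart but by 0.29 (95% interval 0.09 to 0.48, limma adjusted p = 0.114). PHGDH had a log2 fold change of 0.38, SLC7A5 of 0.40, SHMT2 of 0.26 and EDEM1 of 0.27, none of which passed. The groups of PHGDH (6.03 to 6.09 in the induced line, 5.57 to 5.76 in the control line), SLC7A5 and SHMT2 did not overlap, while those of EDEM1 did. The chaperones had a median of 0.07 and HSPA5 a log2 fold change of 0.19 (95% interval -0.01 to 0.39), ATF4 one of 0.04, DDIT3 one of 0.13, CHAC1 one of -0.20 and ASNS one of -0.16. The sensors ERN1, ATF6 and EIF2AK3 lay at 0.03, 0.00 and 0.07. Among the 96 further genes, 2 rose and 1 fell (3.12%, where 3.13% of all genes passed). PPP1R15B rose by 0.53 and PCK2 by 0.43, and GDF15 fell by 0.67 (limma adjusted p = 0.0183, 0.0162 and 0.00424). GDF15 passed in all 12 alternatives, PPP1R15B in 9 (adjusted p up to 0.0992) and PCK2 in 8 (up to 0.0745). The neighbours of PPP1R15B again had a median of 0.35 and those of GDF15 one of -0.26.

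**Figure D2:**
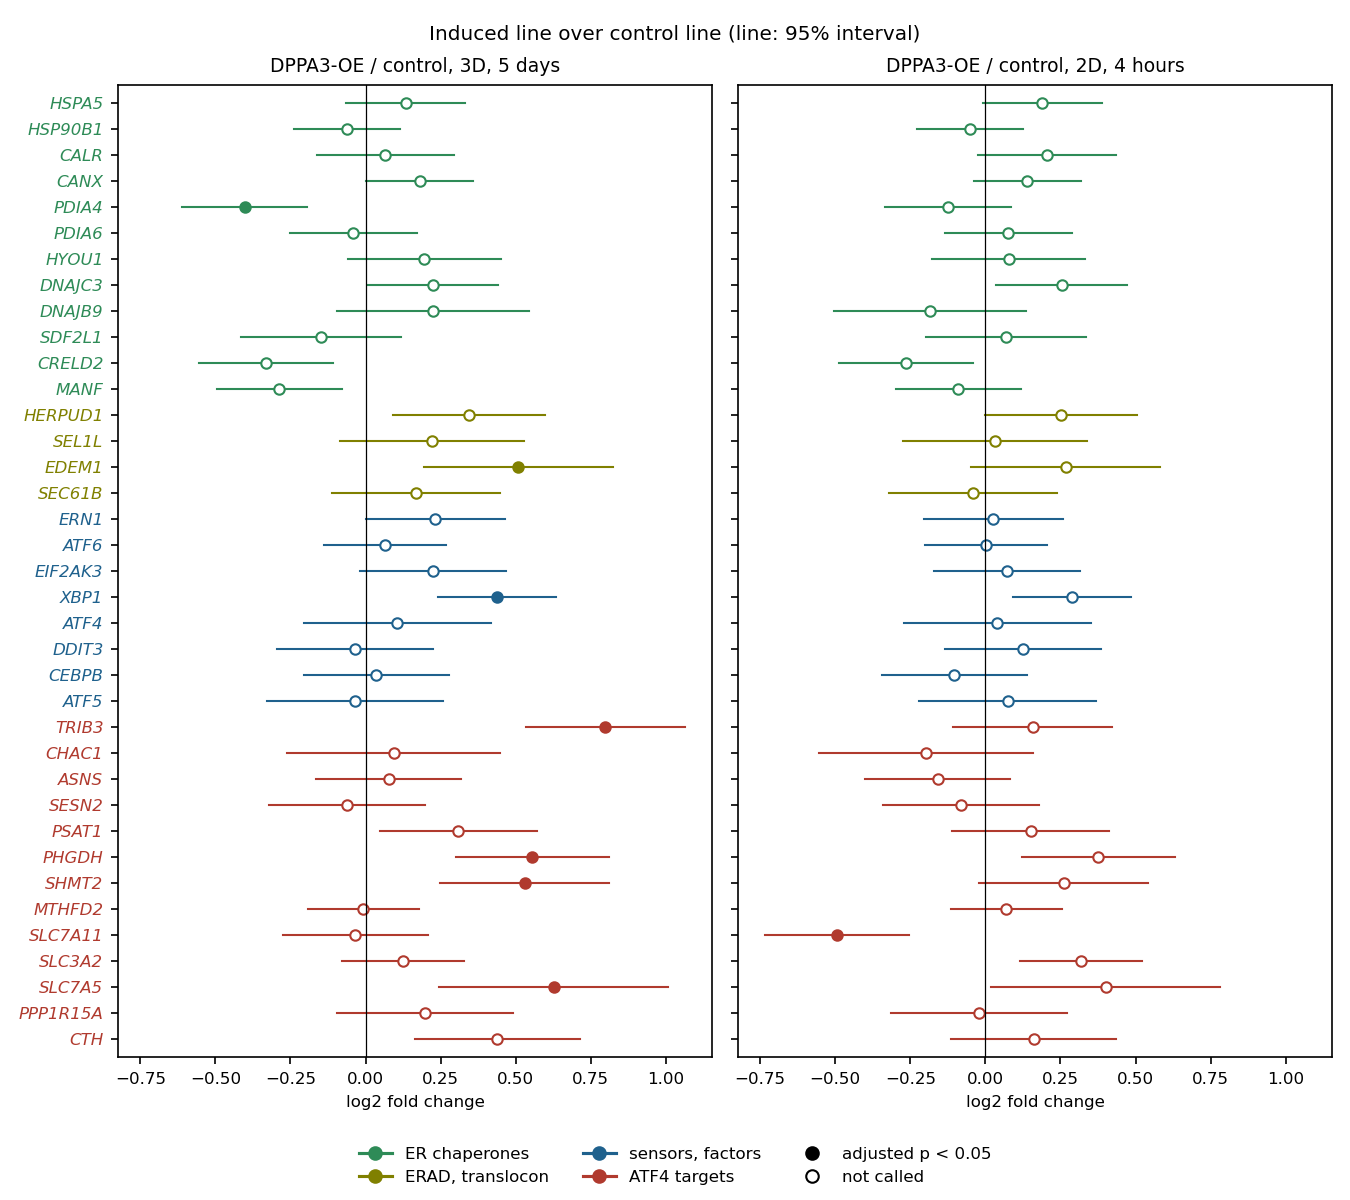
Log2 fold changes of the induced line over its control line (horizontal axis) for 37 genes (vertical axis, coloured by role) in 3D after 5 days of doxycycline and in 2D after 4 hours; lines are 95% intervals and filled points passed. In 3D 6 genes stand to the right and PDIA4 to the left as filled points, and in 2D SLC7A11 (-0.49) is the filled point.

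The effects of induction in 3D and in 2D were then set against each other in the same fit. No gene of the 37 passed by limma for a difference of effects, where 0.241% of all genes did (0.103% higher and 0.138% lower), and 2 had an unadjusted p under 0.05 (5.41%, against 8.98% of all genes). They were TRIB3, with a difference (3D less 2D) of 0.64 log2 (95% interval 0.27 to 1.02, limma adjusted p = 0.184), and SLC7A11, at 0.46 (95% interval 0.12 to 0.80, limma adjusted p = 0.346). For XBP1 the difference was 0.15 (95% interval -0.13 to 0.43) and for HSPA5 -0.06 (95% interval -0.34 to 0.22). Culture and time under doxycycline changed together, so their parts cannot be told apart. The count was 0 in every alternative run.

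The same arrays also allowed 3D to be set against 2D within each line. In the induced line, 11 of 37 genes were higher in 3D and none lower, 29.7%, where 14.9% of all genes passed (7.55% higher and 7.35% lower). The split depended on the setting: with arrays centred on their medians 9 were higher and 3 lower, the 3 being the chaperone CANX and the disulfide isomerases PDIA4 and PDIA6 (log2 fold changes -0.25, -0.31 and -0.32 in that setting). The same 3 were lower, beside 11 higher, with a variance prior that follows the signal. Without genes of dim signal 12 were higher and 2 lower, PDIA4 and PDIA6. ATF4 targets led, with 8 of 13 higher and a median log2 fold change of 0.48, beside -0.03 over all genes. In the control line, 3 of 37 genes were higher and none lower, 8.11%, where 7.8% of all genes passed (4.92% higher and 2.88% lower), and the 13 ATF4 targets had a median of 0.20. On centring, the control line gave 2 higher and 1 lower, the lower being CANX. CANX was also the 1 lower gene there with a variance prior that follows the signal (3 higher) and without genes of dim signal (4 higher).

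PHGDH showed the largest difference in both lines. In the induced line it read 7.56, 7.08 and 7.39 in 3D and 6.03, 6.09 and 6.04 in 2D, and in the control line 6.86, 6.86 and 6.63 in 3D and 5.76, 5.70 and 5.57 in 2D. Every 3D array was above every 2D array, with a log2 fold change of 1.29 in the induced line (SE 0.12, limma adjusted p = 8.52e-08) and 1.11 in the control line (SE 0.12, limma adjusted p = 2.42e-06). Both passed in all 12 alternatives.

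XBP1 was higher in 3D in both lines too, by 0.57 log2 in the induced line (limma adjusted p = 1.36e-04) and by 0.43 in the control line (limma adjusted p = 0.00624; highest adjusted p over 12 alternatives 0.0928). DDIT3 passed in the control line, where it read 4.96, 4.72 and 5.01 in 3D and 4.48, 4.63 and 4.26 in 2D. That difference was 0.44 (limma adjusted p = 0.0317), passed in 6 of 12 alternatives and reached an adjusted p of 0.159 without 2D control replicate 3. In the induced line DDIT3 differed by 0.28, which did not pass.

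TRIB3 in the induced line read 5.89, 5.58 and 5.50 in 3D and 5.12, 4.96 and 4.75 in 2D, a log2 fold change of 0.71 (limma adjusted p = 3.36e-04), while in the control line it differed by 0.07 (95% interval -0.19 to 0.34). ASNS read 7.40, 7.50 and 7.28 in 3D and 6.81, 6.64 and 7.11 in 2D in the induced line, apart by 0.54 (limma adjusted p = 0.00191). SLC7A11, which had been low in the induced line in 2D, read 4.30, 4.53 and 4.36 in 3D and 3.87, 3.77 and 4.01 in 2D, a log2 fold change of 0.51 (limma adjusted p = 0.00300). In the control line ASNS differed by 0.31 and SLC7A11 by 0.05, neither of which passed. The test of the difference between the lines is the test of the difference of induction effects given above, and it passed for none of these genes.

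The other genes higher in 3D in the induced line were CHAC1 (0.62), DNAJB9 (0.58), SLC7A5 (0.55), CTH (0.48), SHMT2 (0.43) and HERPUD1 (0.37). CHAC1 read 4.98, 4.10 and 4.70 in 3D and 4.16, 3.64 and 4.13 in 2D, where the groups overlapped, and its adjusted p of 0.0145 reached 0.130 over 12 alternatives. DNAJB9, a co-chaperone that restrains ERN1, was the only chaperone-group gene of the 12 to pass (limma adjusted p = 0.0115; up to 0.0818 over the alternatives). The call of SLC7A5 (limma adjusted p = 0.0427) was lost in 7 of 12 alternatives (adjusted p up to 0.281), and that of HERPUD1 (limma adjusted p = 0.0431) on leaving out any of the 6 arrays and on centring the arrays on their medians (up to 0.138). SHMT2 reached 0.140 and CTH 0.0684. The count of 11 was 7 without the 3D array of replicate 1, 6 without that of replicate 3, and 7 without the 2D array of replicate 1 or 3.

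The chaperones other than DNAJB9 gave no gene that rose. HSPA5 read 9.01, 8.99 and 8.93 in 3D and 9.07, 9.19 and 9.27 in 2D in the induced line, a log2 fold change of -0.20 (95% interval -0.40 to 0.00). In the control line it was -0.14. The median of the 12 chaperones was -0.18 in the induced line and -0.04 in the control line. ATF4 had a log2 fold change of 0.37 in the induced line and 0.30 in the control line, neither of which passed, and in the induced line it passed only without 3D replicate 1 (limma adjusted p = 0.0440; 0.0440 to 0.543 over 12 alternatives). ERN1, ATF6 and EIF2AK3 had 0.20, 0.21 and 0.07 in the induced line and 0.00, 0.14 and -0.08 in the control line.

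**Figure D3:**
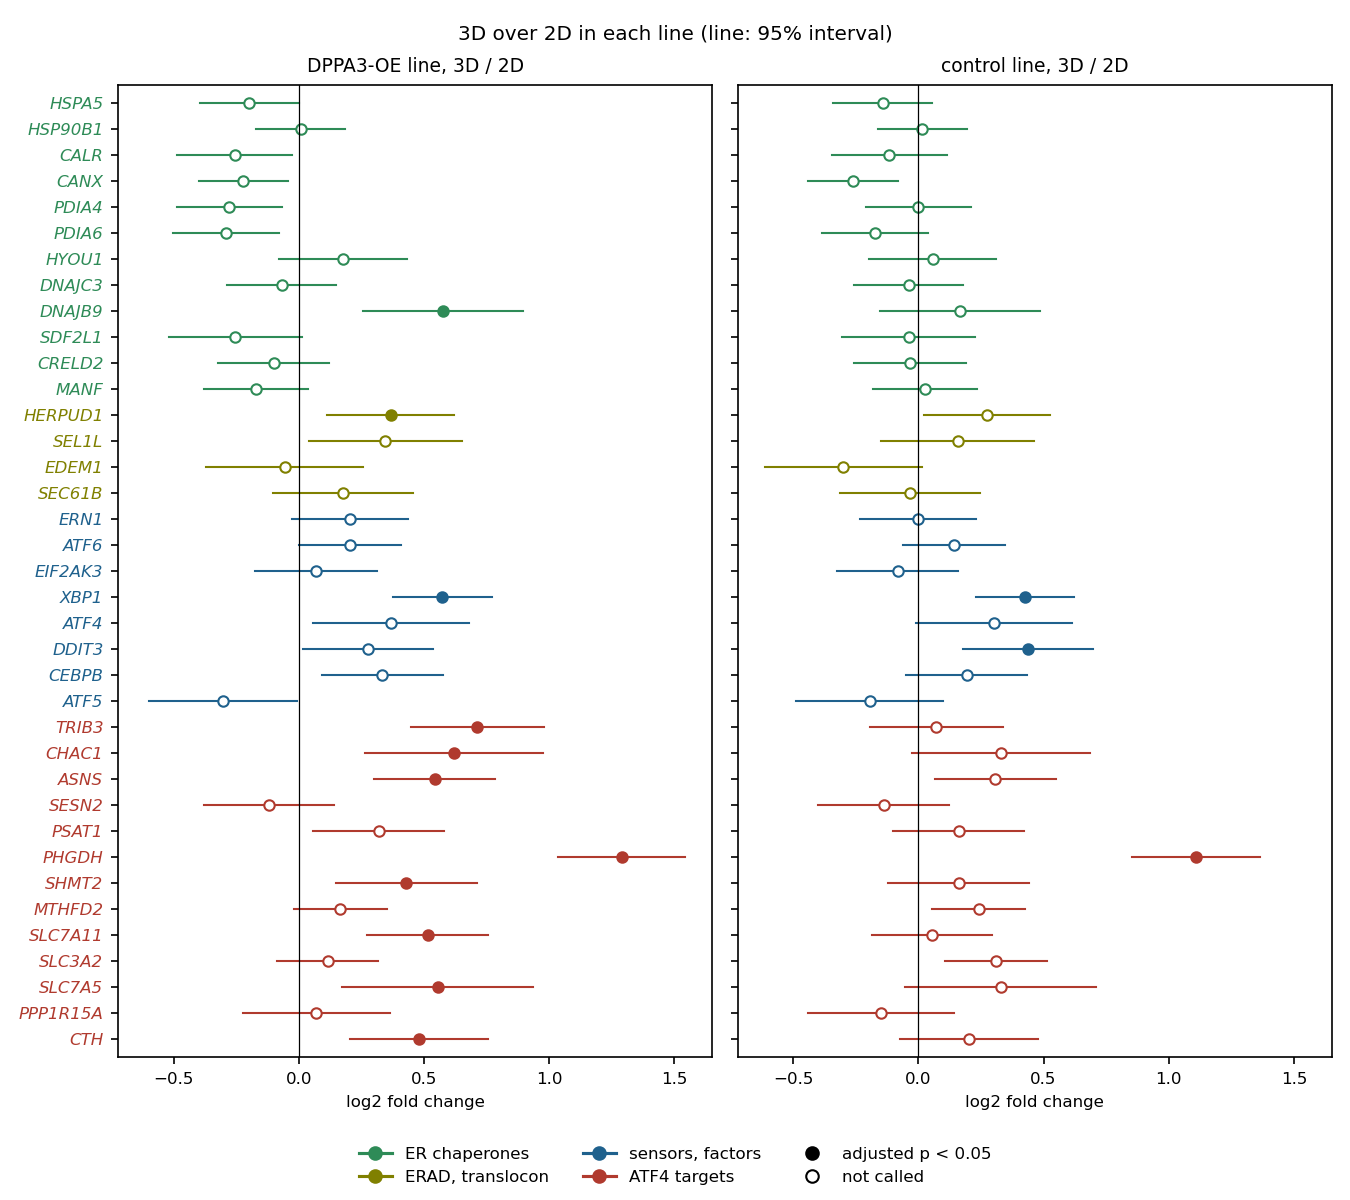
Log2 fold changes of 3D over 2D (horizontal axis) for 37 genes (vertical axis, coloured by role) in the induced line and in the control line; lines are 95% intervals and filled points passed. PHGDH lies farthest to the right in both lines (1.29 and 1.11), and 8 of 13 ATF4 targets are filled in the induced line.

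Further ATF4 targets were also higher in 3D, while some other further genes were lower. Of all 96 further genes, 19 were higher and 10 lower in the induced line (30.2%, beside 14.9% of all genes). In the control line 9 were higher and 2 lower (11.5%, beside 7.8% of all genes). Of 20 further sensors and factors, 1 was higher and 6 lower in the induced line. Among 34 further ATF4 targets, 15 were higher in 3D and none lower in the induced line (44.1%, beside 7.55% of all genes higher), and 8 were higher and none lower in the control line (23.5%, beside 4.92% of all genes higher). DDIT4, an inhibitor of mTORC1, was higher by 1.39 in the induced line (limma adjusted p = 7.32e-06) and 0.99 in the control line, and STC2, a secreted glycoprotein, by 1.18 and 0.90. SLC38A2, a carrier of small neutral amino acids, was higher by 0.82 and 0.63, KLHL24 by 0.83 and 0.59, and PCK2 by 0.81 and 0.60. EIF2S1, which encodes the eIF2 subunit that the kinases phosphorylate, was lower by 0.82 log2 in the induced line (log2 fold change -0.82, limma adjusted p = 1.20e-06) and by 0.55 in the control line (-0.55, limma adjusted p = 4.87e-04). VCP, the ATPase that pulls proteins from the ER for degradation, had log2 fold changes of -0.56 in the induced line and -0.37 in the control line. The value in the induced line passed in all 12 alternatives, and that in the control line (limma adjusted p = 0.0453) in 5 of 12 (up to 0.214). Its cofactor UFD1 (-0.57) and the eIF2 kinase EIF2AK2 (-0.55) passed in the induced line, while their values of -0.27 and -0.12 in the control line did not pass.

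In the knockdown no gene of the 37 passed by limma, where 0.086% of all genes did (0.0344% higher and 0.0516% lower), and 4 had an unadjusted p under 0.05 (10.8%, against 5.26% of all genes). DNAJB9 had the lowest adjusted p. It read 4.66, 4.41 and 4.69 with DPPA3 shRNA and 5.01, 4.98 and 5.16 with control shRNA, apart by -0.46 log2 (95% interval -0.78 to -0.15, limma adjusted p = 0.554). CEBPB, at -0.29, HERPUD1, at -0.28, and SLC7A11, at -0.26, were the other 3. HSPA5 had a log2 fold change of -0.04 (95% interval -0.24 to 0.16), TRIB3 of -0.07 (95% interval -0.33 to 0.20), XBP1 of -0.16 (95% interval -0.36 to 0.03) and ATF4 of 0.05 (95% interval -0.26 to 0.36). The remaining sensors and targets named throughout, ERN1, ATF6, EIF2AK3, DDIT3, CHAC1 and ASNS, lay between -0.16 and 0.12. None of the 96 further genes passed, with 3 at an unadjusted p under 0.05.

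In knockout clone C66, 1 of 37 genes passed, DNAJC3, a co-chaperone of HSPA5 also known as an inhibitor of the eIF2 kinases. This is 2.7%, where 1.43% of all genes passed (0.871% higher and 0.562% lower). DNAJC3 read 7.56 and 7.56 in C66 and 7.11 and 6.89 in the scrambled control, which did not overlap, and it rose by 0.56 log2 (SE 0.13, limma adjusted p = 0.0219). Its neighbours on chromosome 13 had a median log2 fold change of 0.44 in C66, and their part in the value was not tested. The call was lost without either C66 array, without control replicate 2 and with the variance of these 4 arrays alone (adjusted p up to 0.366 over 10 alternatives). The leukocyte marker list summed to 6.14 to 6.30 log2 in C66, against 5.66 to 5.72 in the control. Of its genes CD68 had a mean of 5.86 in C66, against 5.15 in the control. The means of the others were close, with PTPRC at 2.08 in both, CD3E at 2.57 against 2.52 and LYZ at 2.56 against 2.57. The part of the CD68 level in the result was not tested.

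In clone C75 no gene of the 37 passed by limma, where 0.619% of all genes did (0.138% higher and 0.481% lower), and 4 had an unadjusted p under 0.05 (10.8%, against 8.12% of all genes). They were SHMT2 (0.51), PSAT1 (0.41), CANX (0.28) and DNAJC3 (0.27). TRIB3 levels were 4.88 and 4.83 for C66, 5.03 and 5.19 for C75, and 5.48 and 5.34 for the control. All 4 clone arrays lay below both control arrays. The log2 fold change was -0.55 in C66 (95% interval -0.88 to -0.23, limma adjusted p = 0.0908) and -0.30 in C75 (95% interval -0.62 to 0.03, limma adjusted p = 0.668), and neither passed. Of the genes named throughout, HSPA5 had log2 fold changes of 0.24 in C66 and 0.18 in C75, XBP1 of -0.10 and -0.09, ATF4 of 0.00 and 0.08, DDIT3 of -0.19 and -0.16, and CHAC1 of 0.19 and 0.25. ASNS had -0.32 in C66 and 0.10 in C75, ATF6 had 0.27 and 0.19, ERN1 had -0.10 in both, and EIF2AK3 had 0.03 and -0.17. Both clones were set against the same 2 control arrays, so their values are not independent.

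The clones were also compared directly. No gene of the 37 passed by limma, where 2.9% of all genes did (1.98% higher and 0.923% lower), and 6 had an unadjusted p under 0.05 (16.2%, against 10.1% of all genes). Of the 13 ATF4 targets 11 were below 0 in C66 relative to C75, with a median of -0.25, beside -0.01 over all genes. PSAT1 levels were 6.98 and 6.77 for C66 and 7.62 and 7.19 for C75, a log2 fold change of -0.53 (95% interval -0.85 to -0.21, limma adjusted p = 0.0671). It passed without genes of dim signal, with a variance prior that follows the signal, and without C75 replicate 2 (adjusted p = 0.0469, 0.0374 and 0.0283), and in none of its other alternatives. SLC7A5 (-0.55), ASNS (-0.41), SHMT2 (-0.35) and MTHFD2 (-0.34) were the other targets with an unadjusted p under 0.05. Among the 96 further genes, KLHL24, a ubiquitin ligase adaptor listed among ATF4 targets, fell by 0.70 log2 in C66 (limma adjusted p = 0.00458), a call lost without control replicate 2 (0.166) or C66 replicate 2 (0.0642). No other gene of the 96 passed in either clone against the control. KLHL24 alone is 1.04% of the 96, where 1.43% of all genes passed in C66.

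**Figure D4:**
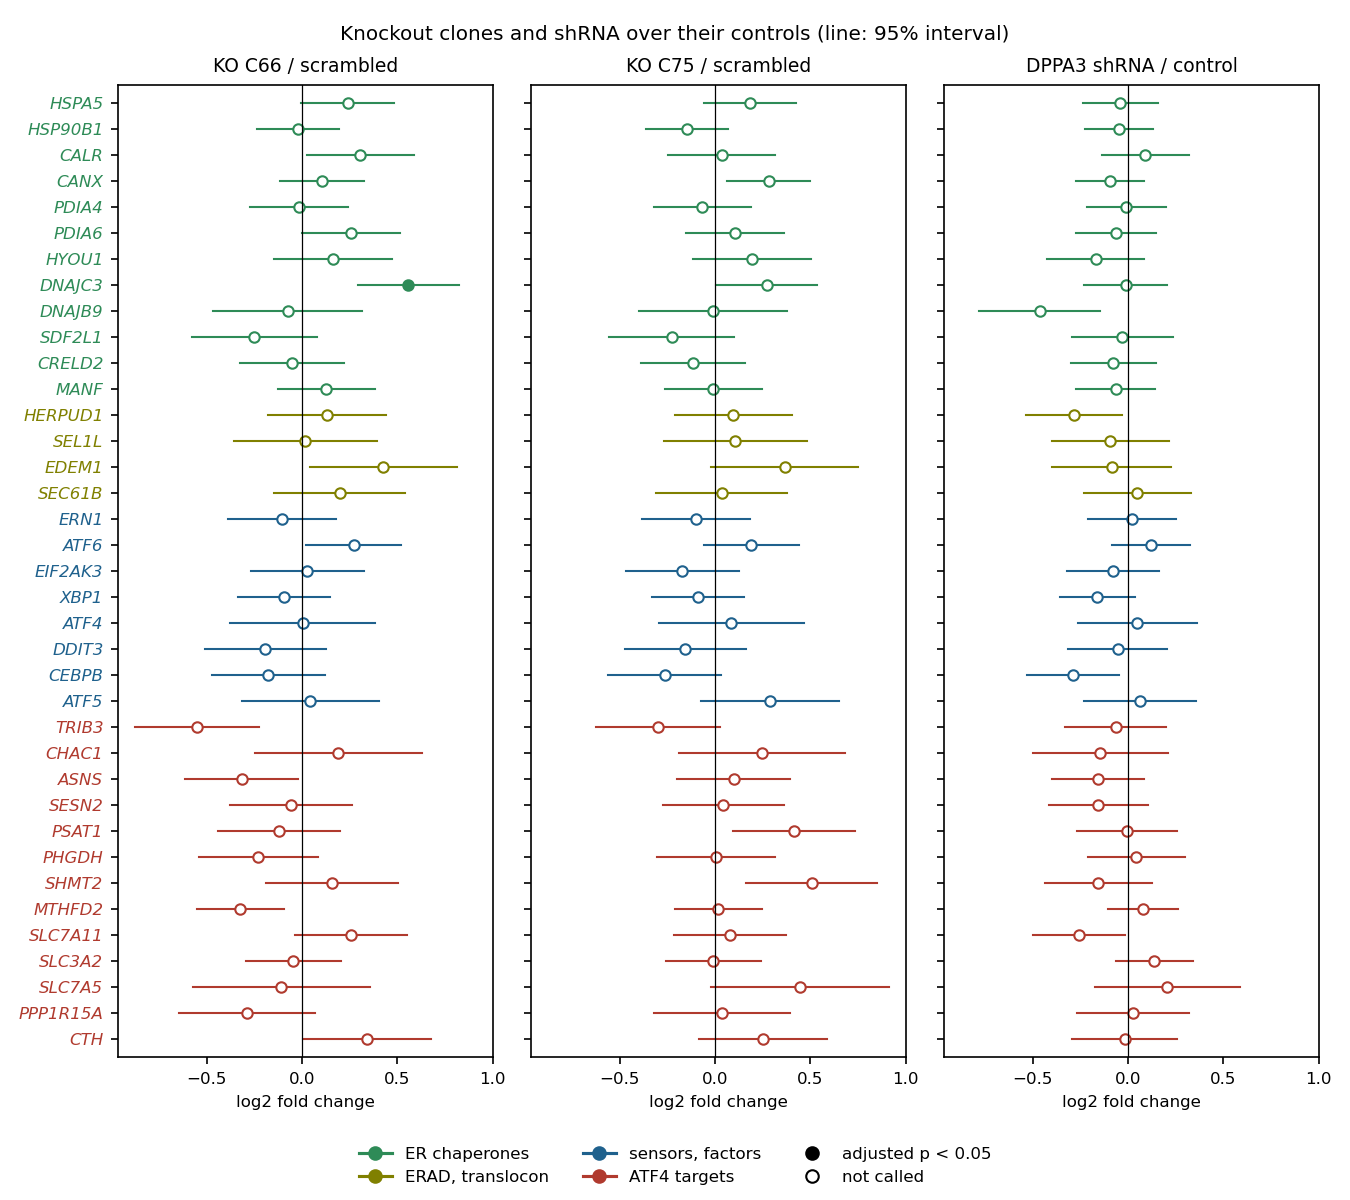
Log2 fold changes (horizontal axis) of knockout clones C66 and C75 over the scrambled control and of DPPA3 shRNA over control shRNA for 37 genes (vertical axis, coloured by role); lines are 95% intervals and filled points passed. DNAJC3 in C66 (0.56) is the only filled point in the 3 panels.

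Levels also differed between the experiments. PSAT1 read 7.74 to 8.39 (median 7.98) on the 12 arrays of the induction experiment and 6.76 to 7.62 (median 7.00) on the 12 other arrays. MTHFD2 read 7.13 to 7.64 (median 7.41) on the induction arrays and 6.51 to 6.94 (median 6.84) on the others. These were the 2 genes of the 37 whose arrays did not overlap, both higher, where 1.71% of all genes did not overlap (1.28% higher and 0.43% lower). In 3D alone, PHGDH read 7.08 to 7.56 in the induced line and 6.63 to 6.86 in its control line, against 5.65 to 6.14 in the 5 untreated groups. PHGDH was not alone in this. SLC3A2 read 6.61 to 6.80 in the induced line and 6.53 to 6.69 in its control line, against 5.90 to 6.22 in those groups. ASNS read 7.28 to 7.50 and 7.13 to 7.48, against 6.48 to 7.06. The share of all genes that were apart in this way in 3D was not counted. Doxycycline, the experiment and the lines changed together here, so they cannot be told apart. For PSAT1 and MTHFD2 culture differed as well, since the induction arrays included 2D and the others were all 3D.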

How the data were processed

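Per the submitters' processing notes, Partek 6.6 and RMA were used by the authors to make the deposited table of log2 values. RMA subtracts background, gives all arrays the same quantiles and combines the probes of a probe set. The labels' protocols name Trizol for the RNA and the Affymetrix protocol for biotin labelling. No build for the array annotation was found in the labels. Medians of the 24 arrays lay between 4.01 and 4.12, and precision is set by the small number of arrays.

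Of 20276 probe sets, 18062 carried 1 gene symbol, 1288 several and 926 none, and the probe sets with several or none were left out. The brightest probe set stood for each of 17448 genes, with no filter on dim signal. limma 3.58.1 in R 4.3.3 fitted 9 group means over 24 arrays (15 residual and 9.81 prior degrees of freedom), with 2-sided moderated tests, and was tested on simulated data. Alternatives were the mean of a gene's probe sets, no dim genes, variance from the contrast's arrays, a trended robust prior, median-centred arrays, the replicate number as a block, and each array left out. Genes of the 38 always named were HSPA5, ERN1, ATF6, EIF2AK3, XBP1, ATF4, DDIT3, CHAC1, TRIB3 and ASNS, with every one that passed; of 102 further pathway genes (96 measured), the 4 largest changes per direction among those that passed were named. Members, lists and tests were chosen with earlier results of these data known. Protein sequences were not used here. RefSeq promoters are of GRCh38.p14, whose gene order also gave the neighbours.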

Additional observations from a re-analysis of the deposited data

Results flagged for a closer look

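The following genes of the further pathway list were picked out because the difference between the clones itself passed by limma, so that the effect of C66 differed from that of C75. KLHL24 had a log2 difference of C66 minus C75 of -0.76 (limma adjusted p = 9.36e-04; up to 0.0274 over 10 alternatives), with -0.70 in C66 and 0.06 in C75 against the control. MTHFD1L, a mitochondrial folate enzyme, had -0.55 (limma adjusted p = 0.0150; up to 0.373), with -0.44 in C66 and 0.11 in C75. SELENOS, a selenoprotein of ER-associated degradation, had -0.46 (limma adjusted p = 0.0350; up to 0.241), with -0.46 in C66 and 0.00 in C75, and its neighbours had a median of -0.49, whose part was not tested. CREB3L2, an ER-bound factor related to ATF6, had 0.63 (limma adjusted p = 0.0438; up to 0.253), with 0.32 in C66 and -0.31 in C75. The calls of SELENOS and CREB3L2 were lost on leaving out any 1 of the 4 clone arrays, and that of MTHFD1L on leaving out C66 replicate 1 or C75 replicate 1 or 2; with the variance of the contrast's arrays alone SELENOS and MTHFD1L lost it too, and on centring the arrays CREB3L2 did. These 4 were among 96 further genes, 4.17%, where 2.9% of all genes passed.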

How the results depend on the processing

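With the variance taken from the arrays of a contrast alone, the count of genes that passed among the 37 became 1 for induction in 3D (7 in the reported fit), 0 for induction in 2D (1), 0 for C66 (1) and 1 for the control line in 3D over 2D (3); fewer arrays give that variance. Without dim genes it became 1 for C66 against C75 (0) and 5 for the control line (3), and with a trended robust prior 1 for C66 against C75. Leaving out 1 array at a time gave 3 to 7 for induction in 3D, 0 to 1 for induction in 2D, 0 to 1 for C66, 0 to 1 for C66 against C75, 2 to 4 for the control line and 6 to 10 for the induced line in 3D over 2D (11), and 0 throughout for the knockdown, C75 and the difference of induction effects. With the replicate number as a block the counts stayed at 7 (induction in 3D), 1 (2D), 1 (C66), 3 (control line) and 11 (induced line), and no call among the 37 changed. The block was shared by all 9 groups, so it cannot stand for a batch within a single experiment. Same-numbered arrays did not deviate together (r = -0.209 to 0.168), so the numbers do not show a pairing. In the knockouts, with 2 arrays a group, both replicates necessarily give the same r. Over 108 such counts 86 stayed within 1.5 times the reported one. The 86 include counts of 0 that stayed at 0. These were all counts of the knockdown, C75 and the difference of induction effects, where there was no call to lose. Of 3987 values of the 37 genes over the alternatives, 274 belonged to calls of the reported fit, and 63 of these 274 lost the call. Of the values not called in that fit 23 gained a call, and no call changed direction. Of 10296 values of the 96 further genes, 697 belonged to calls of the reported fit, and 130 of these 697 lost the call, while 28 other values gained one. The block accounts for 6 lost (EIF2B2, KLHL24 and PDIA5 for induction in 3D, and VCP, SARS1 and SPCS1 in 3D over 2D) and 2 gained. Among the 28, FAF2 in the induced line, had the opposite sign in the reported fit, where it did not pass. Causes were not tested. Signal near background limits what can be read for dim genes such as SESN2 and DPPA3.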
